A study of Homo sapiens with 6 samples.

Results

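AXL, TYRO3, MERTK, MET, IGF1R, INSR, EPHA2 and DDR1 are receptor tyrosine kinases that have been tied to invasive growth, and GAS6 and HGF are ligands of AXL and MET. These 10 genes were taken by symbol from a table of 57445 genes and followed through all 6 libraries of an RNA-Seq experiment in MDA-MB231 cells. MDA-MB231 is an established human triple-negative breast cancer line with a mesenchymal form. The cells carried either a non-silencing shRNA in the pGIPZ vector (shCTL, 3 libraries) or a Ror1 shRNA in the same vector (shRor1, 3 libraries). Both groups were grown with 10% fetal calf serum, transduced at a multiplicity of infection of 5 and selected with puromycin at 2 µg/ml. The comparison asks how gene expression in these cells depends on Ror1, a receptor kinase that binds Wnt ligands.

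The sample labels describe the control as carrying an empty vector, whereas the study describes a non-silencing shRNA. In the deposited table, DMSO stands in the header of the controls, though neither in the labels nor in the shRor1 header, so a difference in treatment and the knockdown cannot be told apart. One shRNA was used, and nothing states that the 3 libraries of a group came from separate cultures. P-values therefore measure the spread between these libraries, which may be technical. The columns of a group share 1 header, so libraries are numbered by column order, which pairs nothing between the groups. Levels are given in TPM, transcripts of a gene per 1000000 transcripts with gene length accounted for, a unit that does not carry read depth. The study lists mapped reads by library, but these could not be tied to the columns. Between 16036 and 17033 genes reached 1 TPM per library. In these bulk samples, fewer cells expressing a gene and less RNA per cell cannot be told apart.

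Receptor tyrosine kinases are single-pass membrane proteins that phosphorylate each other when a ligand activates them. They pass the signal through shared adaptors to the RAS/MAPK and PI3K cascades. AXL, TYRO3 and MERTK form the TAM family, whose vitamin K-dependent ligands GAS6 and protein S bridge the receptors to phosphatidylserine on dying cells, and AXL is known for high expression in mesenchymal carcinoma cells. MET drives scattering and invasive growth when it binds HGF, IGF1R and INSR bind insulin-like growth factors and insulin and can form hybrids, EPHA2 binds ephrin-A ligands on neighbouring cells, and DDR1 is activated by collagen.

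The 50-base reads have to tell these paralogs apart, so coding stretches of that length are shown for the TAM receptors and for the insulin receptor pair. For the TAM receptors, the most alike stretches of AXL and TYRO3 were taken, with the MERTK stretch closest to that of AXL. They were read from the GRCh37 genome at chr19:41762376-41762425 (plus strand, exon 18 of 20) for AXL, chr15:41865525-41865574 (plus strand, exon 17 of 19) for TYRO3 and chr2:112779018-112779067 (plus strand, exon 17 of 19) for MERTK. Exons are those of the canonical transcript. Capitals mark the 11 positions at which the 3 genes are not all the same.
AXL: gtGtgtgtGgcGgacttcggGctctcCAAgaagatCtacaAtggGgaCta
TYRO3: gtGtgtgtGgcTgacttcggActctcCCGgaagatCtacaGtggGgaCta
MERTK: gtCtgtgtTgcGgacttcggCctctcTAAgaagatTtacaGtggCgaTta
Within this window AXL and TYRO3 differed at 5 bases, AXL and MERTK at 8, and TYRO3 and MERTK at 10. In other stretches MERTK came closer, with 7 differences from AXL and 9 from TYRO3. The closest stretches of IGF1R (chr15:99500300-99500349, plus strand, exon 21 of 21) and INSR (chr19:7117362-7117411, minus strand, exon 22 of 22) differed at 5 bases, marked by capitals.
IGF1R: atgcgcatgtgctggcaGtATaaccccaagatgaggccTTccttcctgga
INSR: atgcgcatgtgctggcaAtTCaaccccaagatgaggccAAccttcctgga
No coding window of 50 bases of a member receptor came closer than 5 differences to another member receptor. Windows shared exactly with the annotated transcripts of any other gene on the same strand made up 5.07% of the 50-base windows of TYRO3, where the pseudogene TYRO3P held the most, 1.01% of those of AXL and at most 0.257% for each of the other members. On the opposite strand, which matters if counting ignored the strand, GAS6 shared 8.01% of its windows, all with GAS6-AS1, and TYRO3 shared 2.71%.

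ROR1 (ENSG00000185483.7), the targeted gene, was measured at 15.42, 13.49 and 20.56 TPM in the control libraries and at 9.34, 11.93 and 14.85 TPM in the knockdown libraries. Only 2 of the 3 shRor1 libraries lay below all controls, and the difference of -0.43 on the log2(TPM + 1) scale (95% confidence interval -0.88 to 0.03, limma) had an adjusted p of 0.984. The knockdown thus did not pass the adjusted test at the level of ROR1 mRNA in these libraries. Before adjustment, the p of ROR1 was 0.065 (limma). This unadjusted p fell below 0.05 after quantile (log2 fold change -0.49) and median-of-ratios scaling (-0.48), with adjusted p of 0.999 and 0.997. The same held without the third library of both groups (-0.42), a setting chosen after seeing the data. The study reports a stable Ror1 knockdown in these cells and shows a Western blot of Ror1 protein in shCTL and shRor1 cells. Protein was not analysed here. Every direction below is that of the libraries labelled shRor1. Mesenchymal and basal markers fitted the label of the line. Its 8 mesenchymal and basal markers, led by VIM with a mean of 2629 TPM, summed to 5773 to 6038 TPM in shCTL and 6164 to 6264 TPM in shRor1, and the part of this gap in the results was not tested. The 9 luminal markers summed to 30.8 to 36.2 TPM against 31.3 to 49.3 TPM, with EPCAM highest at a mean of 14.4 TPM and PGR lowest at 0.0033 TPM. Of the 7 tested, 5 were higher and 2 lower in shRor1, and 0 were called after adjustment. CDH1 was the only 1 without overlap, beside 7.78% of all genes tested. TFF1 and TFF3, named after their values were seen, varied most. TFF1 gave 2.17, 6.14 and 2.91 TPM in shCTL and 2.05, 15.26 and 3 TPM in shRor1. TFF3 gave 1.54, 2.64 and 5.16 TPM in shCTL and 1.72, 7.5 and 10.99 TPM in shRor1. The cause of this spread was not tested. The 3 leukocyte markers, led by PTPRC, stayed below 1 TPM in every library, and their lowest was CD3E at a mean of 0.005 TPM.

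No member passed the test between shCTL and shRor1. Of the 10 members, 9 reached the filter of at least 1 TPM in at least 3 libraries, 7 of these had a higher mean log2 value and 2 a lower one in shRor1, and 0 had an adjusted p below 0.05, where 0% of the 16554 genes tested were called. At an unadjusted p below 0.05 the count was 0 of 9 members, beside 2.85% of all genes tested (472 genes, 382 higher and 90 lower). The groups of 3 libraries overlapped for all 9 members, while 7.78% of the genes tested had no overlap. The adjusted p-values of the members ran from 0.984 to 0.991 (limma, Benjamini-Hochberg), and their median log2 fold change was 0.14 beside 0.05 for all genes tested, 67.0% of which were higher in shRor1. After quantile and median-of-ratios scaling the members' median was 0.071 and 0.085, and 8352 and 8505 of the 16554 genes tested were higher.

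**Figure D1:**
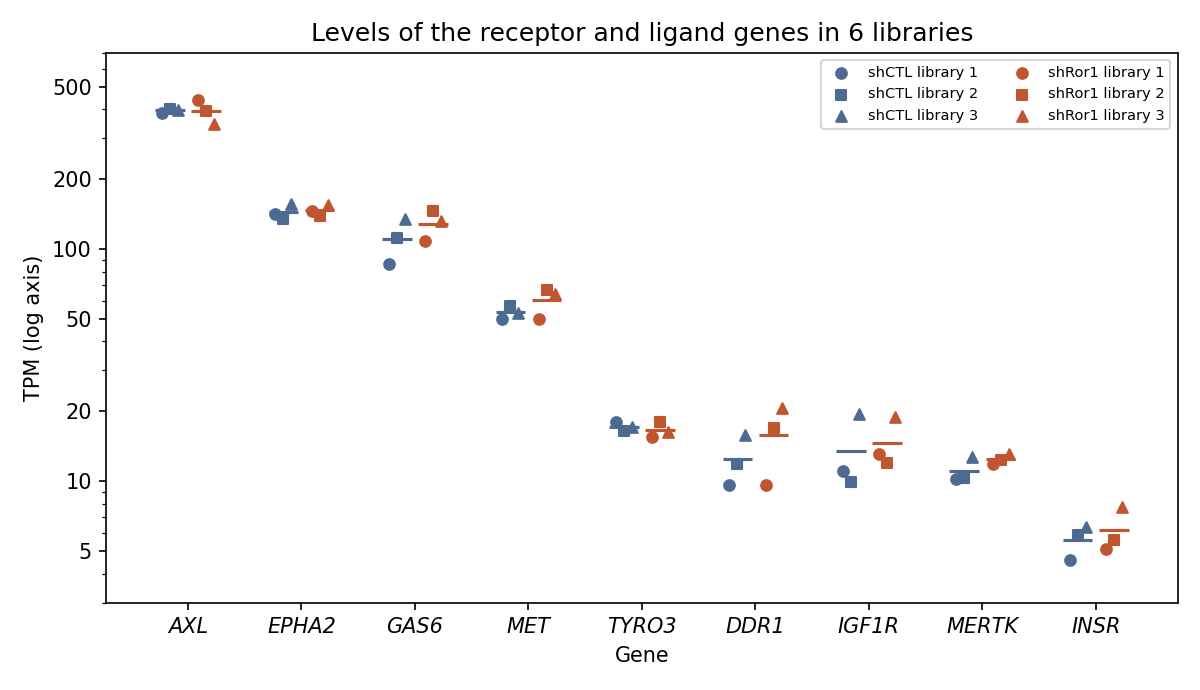
Level of each of the 9 genes detected in TPM (log axis) in the 3 shCTL (blue) and the 3 shRor1 (red) libraries, 1 symbol per library, with a bar at each group mean; HGF, listed at 0, is not drawn. AXL is highest and INSR lowest in every library, and the points of both groups overlap for each gene.

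The TAM receptors were led by AXL. AXL (ENSG00000167601.7, chromosome 19, 41725128 to 41767671, plus strand) gave 387.2, 402.91 and 398.13 TPM in the controls, against 437.58, 392.35 and 346.56 TPM with shRor1. The controls lay close together, whereas the knockdown libraries spread to both sides of them, with 1 above and 1 below all controls. The means were 396 ± 8.05 TPM and 392 ± 45.5 TPM (SD, n = 3 each), and the log2 fold change was -0.02 (SE 0.09, adjusted p = 0.991, limma). Its 95% interval, on the TPM + 1 scale, allowed 0.850- to 1.14-fold. Without the third shRor1 library the direction turned, to a log2 fold change of 0.065.

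TYRO3 (ENSG00000092445.7, chromosome 15, 41849873 to 41875787, plus strand), a TAM receptor best known from the nervous system, reached 18, 16.51 and 17.09 TPM in shCTL and 15.51, 18.02 and 16.34 TPM in shRor1. Of its shRor1 libraries, 2 lay below and 1 above all controls. The log2 fold change was -0.05 (SE 0.09, adjusted p = 0.986, limma), with an interval of 0.832- to 1.13-fold. MERTK (ENSG00000153208.12, chromosome 2, 112656184 to 112787138, plus strand), the TAM receptor by which macrophages engulf dying cells, gave 10.24, 10.33 and 12.74 TPM in the controls. In shRor1 it gave 11.88, 12.39 and 13.15 TPM, and only the third control reached into that range. The log2 fold change of MERTK was 0.16 (SE 0.11, adjusted p = 0.984, limma), with an interval of 0.929- to 1.34-fold. AXL made up 92.2% to 94.1% of the summed TPM of the 3 TAM receptors in each library.

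GAS6 (ENSG00000183087.9, chromosome 13, 114523522 to 114567049, minus strand), the ligand with the highest affinity for AXL, was itself abundant. Its values were 86.39, 111.2 and 134.41 TPM in shCTL and 108.5, 145.92 and 132.3 TPM in shRor1. Only the second knockdown library stood above all controls, and the means of 110.7 ± 24.01 TPM and 128.9 ± 18.9 TPM (SD, n = 3 each) differed by 0.23 on the log2 scale (SE 0.17, adjusted p = 0.984, limma). The interval of 0.889- to 1.55-fold was among the wider ones. The line thus carried mRNA of both AXL and its ligand, at an AXL to GAS6 ratio of 4.48, 3.62 and 2.96 in shCTL and 4.03, 2.69 and 2.62 in shRor1. These ratios overlapped between the groups (exact permutation test, two-sided p = 0.4, where 3 against 3 cannot go below 0.1).

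Reads of AXL and GAS6 may in part belong to antisense genes if counting ignored the strand, which is not stated. AXL shares 67 exonic bases with the antisense gene ENSG00000269652, which stayed between 2.92 and 5.16 TPM. GAS6 shares 421 exonic bases with GAS6-AS1, which stayed between 0.31 and 0.83 TPM. Both partners were far below the receptor and the ligand they overlap.

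MET (ENSG00000105976.10, chromosome 7, 116312250 to 116438431, plus strand) was expressed, while its ligand was listed at 0. Its values were 50.21, 56.99 and 53.05 TPM in shCTL and 49.78, 66.90 and 63.93 TPM in shRor1, so that 2 knockdown libraries lay above and 1 below all controls. The means were 53.4 ± 3.41 TPM and 60.2 ± 9.15 TPM (SD, n = 3 each), with a log2 fold change of 0.16 (SE 0.12, adjusted p = 0.984, limma) and an interval of 0.921- to 1.36-fold. HGF (ENSG00000019991.11, chromosome 7, 81328326 to 81399754, minus strand), which in tissues comes mainly from mesenchymal stromal cells, had this value in all 6 libraries and was not tested. No upper limit was computed for HGF, since TPM are not read counts and library sizes could not be tied to the columns.

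IGF1R (ENSG00000140443.9, chromosome 15, 99191768 to 99507759, plus strand) varied more between libraries of a group than between the groups. It was measured at 11.09, 9.94 and 19.58 TPM in shCTL and 13.08, 11.97 and 18.83 TPM in shRor1, and the third library of each group stood above the other four libraries. The log2 fold change was 0.14 (SE 0.26, adjusted p = 0.986, limma), with an interval of 0.722- to 1.68-fold. INSR (ENSG00000171105.9, chromosome 19, 7112266 to 7294425, minus strand), the insulin receptor, had the lowest level of the members detected. It amounted to 4.56, 5.88 and 6.32 TPM in the controls and 5.13, 5.57 and 7.74 TPM in the knockdown, again with the third library highest in each group. Its log2 fold change was 0.11 (SE 0.18, adjusted p = 0.984, limma), with an interval of 0.813- to 1.43-fold. IGF1R exceeded INSR in every library, by a ratio of 2.43, 1.69 and 3.10 in shCTL and 2.55, 2.15 and 2.43 in shRor1, and these ratios overlapped (exact permutation test, two-sided p = 0.9).

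EPHA2 (ENSG00000142627.9, chromosome 1, 16450832 to 16482564, minus strand) was the most even of the abundant members. Its values were 141.68, 135.32 and 156.37 TPM in shCTL and 146.34, 139.30 and 155.31 TPM in shRor1. The libraries of both groups were interleaved, and the log2 fold change of 0.026 (SE 0.08, adjusted p = 0.987, limma; -0.030 after median-of-ratios scaling) had an interval of 0.895- to 1.16-fold. DDR1 (ENSG00000204580.7, chromosome 6, 30844198 to 30867933, plus strand), the collagen receptor, was the most variable member. The controls gave 9.63, 11.90 and 15.88 TPM and the shRor1 libraries 9.61, 16.95 and 20.78 TPM, with 2 knockdown libraries above and 1 below all controls. The means of 12.5 ± 3.16 TPM and 15.8 ± 5.68 TPM (SD, n = 3 each) gave a log2 fold change of 0.28 (SE 0.28, adjusted p = 0.984, limma). Its interval of 0.775- to 1.91-fold was the widest of the members.

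**Figure D2:**
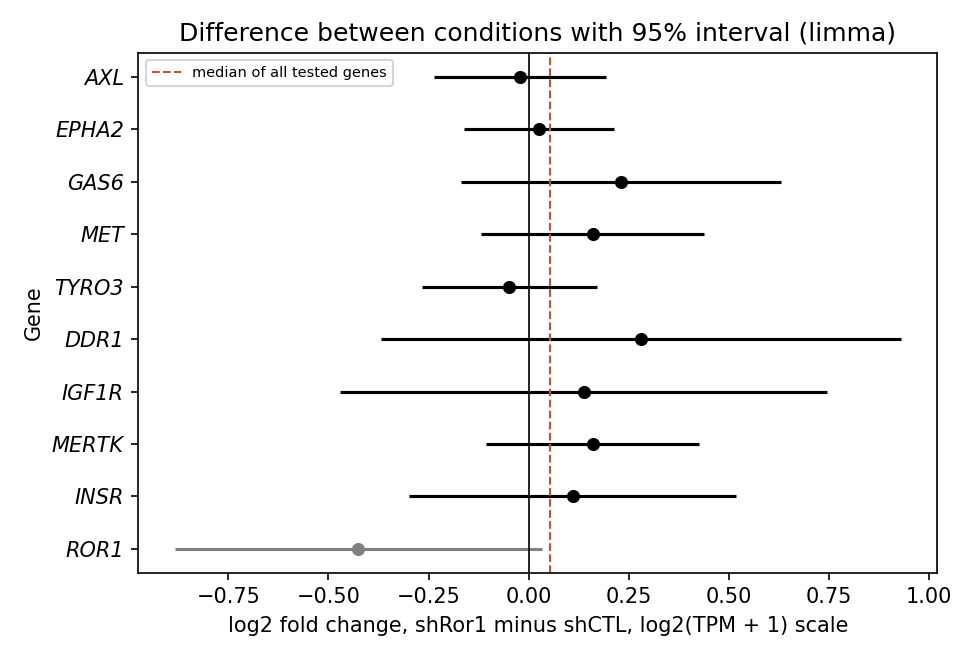
Log2 fold change of shRor1 over shCTL on the log2(TPM + 1) scale for the 9 members tested and ROR1, with lines for the 95% confidence interval from limma and a dashed line at the median of all genes tested (0.05). Every interval crosses 0, from the narrow one of EPHA2 (-0.16 to 0.21) to the wide one of DDR1 (-0.37 to 0.93).

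The precision of these comparisons differed between members. The residual SD of EPHA2 was 0.093 on the log2 scale, and 20.6% of the genes tested had a smaller one, whereas DDR1 had an SD of 0.45 and IGF1R of 0.42, with 95.1% and 93.9% of the genes below them. TYRO3 was the most even member (0.084), and AXL had 0.12. Part of this spread followed the column order. In 5 members, MERTK, IGF1R, INSR, EPHA2 and DDR1, the third library was the highest within each group, as it was in 33.9% of all genes tested. The cause of this pattern was not tested.

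**Figure D3:**
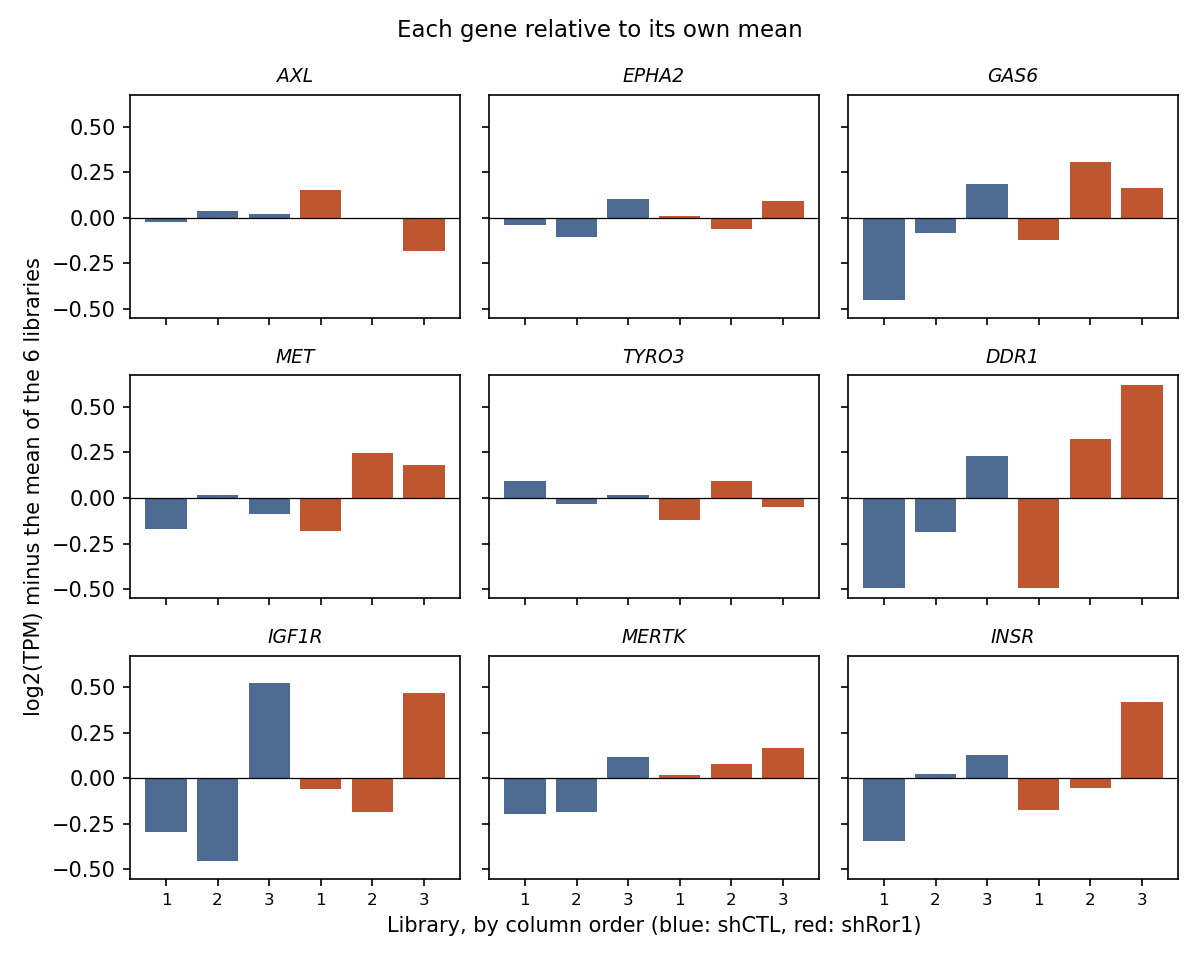
Bars give log2(TPM) of each of the 9 genes detected minus its mean over the 6 libraries, with the 3 shCTL libraries in blue and the 3 shRor1 libraries in red, in column order. IGF1R and DDR1 spread most, and the third library is the highest within each group for 5 of the 9 genes.

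The order of the member levels is given as a description. By mean over the 6 libraries it ran AXL, EPHA2, GAS6, MET, TYRO3, DDR1, IGF1R, MERTK, INSR and HGF. The ranges of AXL and EPHA2, of GAS6 and MET, of MET and TYRO3, of MERTK and INSR and of INSR and HGF did not overlap. The neighbours EPHA2 and GAS6, TYRO3 and DDR1, DDR1 and IGF1R, and IGF1R and MERTK overlapped. EPHA2 exceeded GAS6 in 5 of 6 libraries, TYRO3 exceeded DDR1 in 5 of 6, DDR1 exceeded IGF1R in 3 of 6, and IGF1R exceeded MERTK in 4 of 6.

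Among all 58 receptor tyrosine kinase genes, AXL ranked first with a mean of 394 TPM over the 6 libraries, and EPHA2 came next with 145.7 TPM. They were followed by the epidermal growth factor receptor EGFR (84.6 TPM), the Wnt-pathway receptors PTK7 (63.2 TPM) and RYK (58.3 TPM), and MET (56.8 TPM). The other receptors with at least 10 TPM were FGFR1 (47.3 TPM), EPHB4 (32.9 TPM), ERBB2 (30.4 TPM), TYRO3 (16.9 TPM), the MET paralog MST1R (15.8 TPM), EPHB2 (15.4 TPM), ROR1 (14.3 TPM), DDR1 (14.1 TPM), IGF1R (14.1 TPM) and MERTK (11.8 TPM). Thus 7 of the 16 receptors at this level were members, and INSR was in place 19 with 5.87 TPM. A mean below 1 TPM was found for 30 of the 58 genes. AXL alone took 32.0% to 40.2% of the TPM of all receptor tyrosine kinases, EPHA2 13.1% to 14.4% and MET 4.57% to 6.37%.

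**Figure D4:**
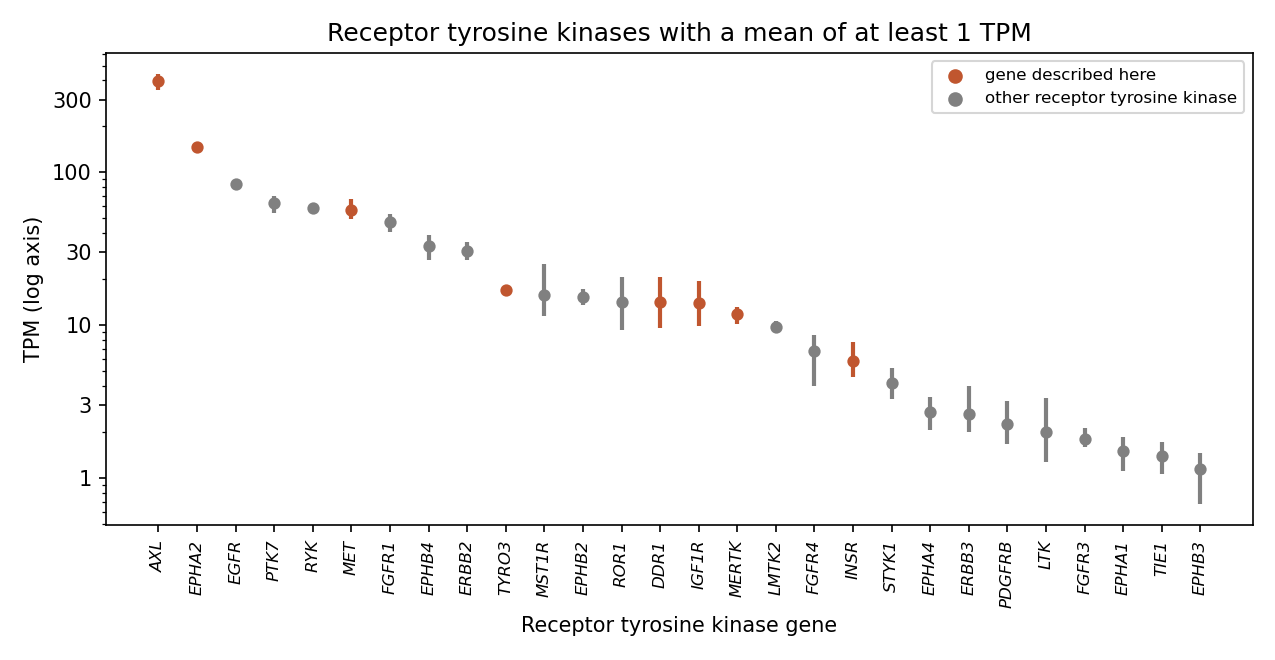
Receptor tyrosine kinase genes with a mean of at least 1 TPM (28 genes), ordered by mean, with a point at the mean of the 6 libraries and a line from the lowest to the highest library in TPM (log axis); the genes described are red and the others gray. AXL (394 TPM) and EPHA2 (145.7 TPM) lead, and ROR1 (14.3 TPM) lies between EPHB2 and DDR1.

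The balance between receptors was compared as well, since a ratio within a library does not depend on its total. The 8 member receptors together made up 62.3%, 62.8% and 61.1% of the receptor tyrosine kinase TPM in shCTL and 63.3%, 63.2% and 59.4% in shRor1, which overlapped (exact permutation test, two-sided p = 1.0). The AXL to TYRO3 ratio was 21.5, 24.4 and 23.3 in shCTL and 28.2, 21.8 and 21.2 in shRor1 (exact permutation test, two-sided p = 0.9). With the ratios of AXL to GAS6 and of IGF1R to INSR, 4 such comparisons were made, and all had an adjusted permutation p of 1.0.

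The other genes of each receptor's pathway were taken as lists of known partners, and none of their members was called after adjustment (limma, smallest adjusted p = 0.984). In the TAM axis (8 genes, 6 tested), 5 were higher and 1 lower in shRor1, with a median log2 fold change of 0.17. After quantile and median-of-ratios scaling these counts stayed, with medians of 0.13 and 0.11. The number at an unadjusted p below 0.05 (limma) went from 1 to 0 after both. LGALS3, a galectin described as a further TAM ligand, measured 63.77, 61.19 and 59.46 TPM in the controls and 66.24, 70.32 and 82.03 TPM in shRor1. These groups did not overlap, and the log2 fold change was 0.24 (SE 0.09). LGALS3 was the only 1 of the 6 genes tested in this list without overlap, beside 7.78% of all genes tested. It was named for its small p, which favours groups without overlap. The sheddases ADAM10 (mean 95.6 TPM, log2 fold change 0.06) and ADAM17 (32.1 TPM, 0.18), which cleave TAM receptors from the surface, and VKORC1 (74.5 TPM, -0.007), which regenerates the vitamin K that GAS6 needs, overlapped between the groups. PROS1, which encodes protein S and was named after its values were seen, had a mean of 13.3 TPM.

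In the HGF/MET axis (14 genes, 10 tested) 10 were higher and 0 lower, with a median of 0.16, and 8 were higher after quantile or median-of-ratios scaling. NRP1, a co-receptor that takes up HGF and VEGF, amounted to 96.89, 91.81 and 99.98 TPM in shCTL against 104.84, 124.62 and 146.75 TPM in shRor1. Its groups did not overlap, and its log2 fold change of 0.37 (SE 0.12) was past that of the other tested genes of the axis except MST1. MST1, which encodes the ligand of MST1R, also had no overlap, with 1.83 to 3.27 TPM in shCTL and 3.41 to 4.04 TPM in shRor1. Its log2 fold change was 0.39 (SE 0.17). NRP1 and MST1, which had the smallest p-values of the axis, were the 2 of 10 genes tested without overlap, beside 7.78% of all genes tested. SPINT2, an inhibitor of the proteases that activate HGF, had the highest mean of the axis (265.4 TPM), and its groups overlapped.

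In the insulin/IGF axis (18 genes, 10 tested) 9 were higher and 1 lower, with a median of 0.16. After quantile and median-of-ratios scaling 8 were higher and 2 lower, with medians of 0.12 and 0.11. The number at an unadjusted p below 0.05 (limma) was 1 after quantile and 0 after median-of-ratios scaling. The ubiquitin ligase NEDD4, which acts on IGF1R, held 124.74, 115.23 and 117.50 TPM in the controls and 133.42, 133.85 and 136.75 TPM in shRor1. Its groups did not overlap, and its log2 fold change was 0.18 (SE 0.06). NEDD4, named for its high mean and its small p, was the only 1 of the 10 genes tested in this list without overlap, beside 7.78% of all genes tested. The adaptor GRB10, which binds both receptors, had a log2 fold change of 0.18 (SE 0.09). IGFBP4, which binds and withholds IGFs, was the most abundant gene of all 6 lists, and it ran from 756 to 1245 TPM in shCTL and from 650.3 to 1677 TPM in shRor1. The ligand genes IGF1 and IGF2, named after their values were seen, had means of 0.115 and 0.275 TPM.

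The remaining lists had smaller medians, of 0.07 for the ephrins and other Eph receptors, 0.09 for DDR2 and the collagens and 0.06 for the shared adaptors. Among the ephrins and other Eph receptors (21 genes, 12 tested) 10 were higher and 2 lower in shRor1, but after quantile normalization 6 were higher and 6 lower. EPHB4 (mean 32.9 TPM) and EPHB2 (15.4 TPM) were the most abundant, and the ligands EFNA4 (0.20) and EFNB2 (0.16) had the smallest p-values with the log2 fold changes given. Among DDR2 and the collagens (10 genes, 7 tested) 6 were higher and 1 lower, COL4A2 was highest with a mean of 61.4 TPM, and COL6A1 (0.40, SE 0.29) and COL5A1 (0.35, SE 0.26) had log2 fold changes above that of COL4A2 (0.09), with overlapping groups. All 28 shared adaptors were tested, and 20 were higher and 8 lower. After quantile normalization 17 were higher and 11 lower, and after median-of-ratios scaling 16 and 12. SHC1 (171.6 TPM) and PTPN11 (160.4 TPM), which link receptors to RAS, were the most abundant, and SOS1 (log2 fold change 0.25, SE 0.11), the exchange factor for RAS, was 1 of 4 of the 28 adaptors without overlap (7.78% of all genes tested had none), while PIK3CA (0.23, SE 0.14) overlapped.

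**Figure D5:**
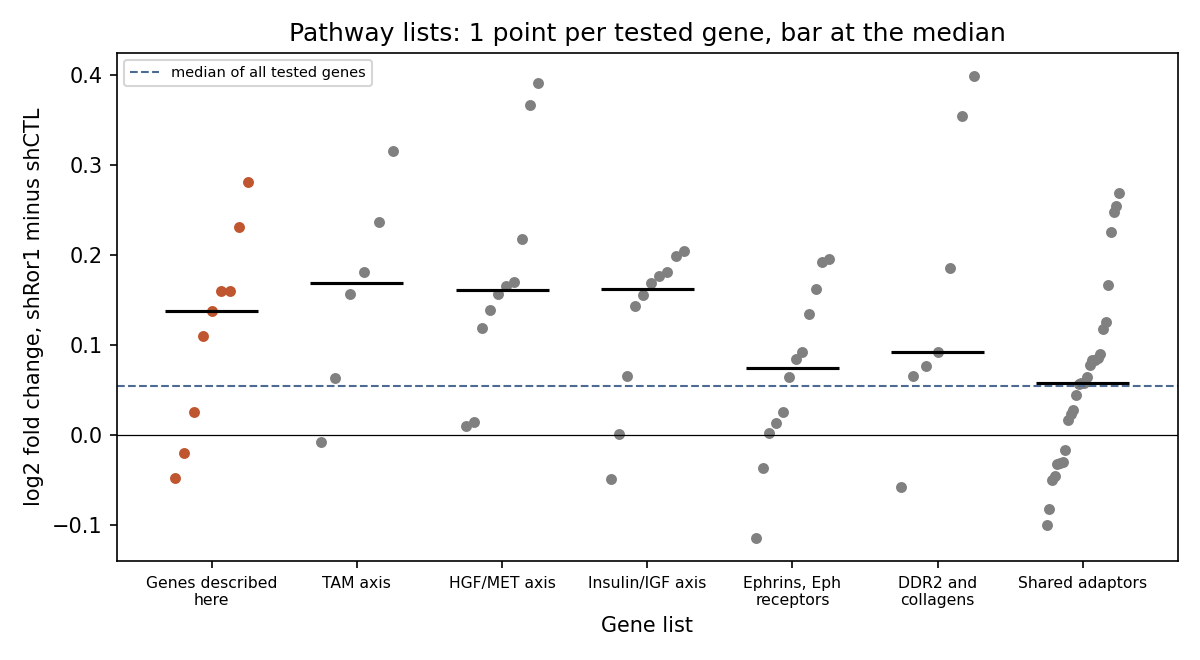
Log2 fold changes of shRor1 over shCTL on the log2(TPM + 1) scale for the 9 members tested (red) and the tested genes of 6 pathway lists (gray), 1 point per gene, with a bar at the median of each list and a dashed line at the median of all genes tested (0.05). Medians of the pathway lists lie between 0.06 for the shared adaptors and 0.17 for the TAM axis, and no gene passed the adjusted test.

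The genes whose pattern over the 6 libraries was most like that of AXL were AAAS (Pearson r = 0.994), NDUFS8 (0.993) and TYW1 (0.98), and 26 of the genes tested (0.157%) had an r above 0.95. For MET they were SMCHD1 (0.996), COQ5 (0.995) and EXOC1 (0.995), with 199 genes (1.202%) above 0.95. These values describe 6 libraries that share their line and preparation, and the genes were picked from all genes tested.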

How the data were processed

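The authors extracted RNA from MDA-MB231 cells with shCTL or shRor1 (3 libraries each) and sequenced single reads of 50 bases. The labels name polyadenylated RNA, the study's methods a stranded total RNA kit. Per the study's methods and the submitters' processing notes, reads were prepared with CASAVA 1.8.2, checked with FastQC 0.10.0, mapped to GRCh37 (Ensembl 73) with STAR and quantified with RSEM 1.2.5, which divides reads shared by several genes by an estimate. The authors deposited TPM per gene, although the table is called expected counts, since each column sums to 1000000. TPM keep no depth, and they are relative, so that the rise of 1 gene lowers the rest. Because of this unit no count model was used.

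The 16554 genes that reached 1 TPM in no fewer than 3 libraries were fitted as log2(TPM + 1) with limma 3.58.1 in R 4.3.3, with the condition as the only term, empirical Bayes moderation along a mean-variance trend and p-values adjusted by Benjamini-Hochberg at 0.05. The pseudocount understates changes of low genes. Ratios and single values were compared by two-sided exact permutation tests. Scripts were tested on simulated data. Symbols matched 55022 identifiers, and positions came from GENCODE 44 mapped to GRCh37.

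The members and lists were chosen with earlier results of these data known. Named genes are the 10 members, ROR1, receptor tyrosine kinases with a mean of at least 10 TPM, in each pathway list the 2 genes with the highest mean and the 2 with the smallest p, the 3 genes most correlated with AXL and with MET, genes sharing exons with a member, and the highest and lowest marker of each marker list. Alternatives were no filter, a minimum mean of 5 TPM, a pseudocount of 0.1, quantile and median-of-ratios scaling, no trend and each library left out. Leaving out the third library of both groups was chosen after seeing the data.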

Additional observations from a re-analysis of the deposited data

How the results depend on the processing

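No member and no pathway gene had an adjusted p below 0.05 (limma) in the analysis as reported or under any of the 13 alternatives, in which the adjusted p-values of the members ran from 0.44 to 1. TYRO3, MERTK, GAS6, MET and DDR1 kept their direction in all 13, but 1 library moved their size. EPHA2 turned to -0.030 (log2 fold change) after median-of-ratios scaling, and AXL to 0.069 when the third library of both groups was left out. Leaving out 1 library at a time gave -0.10 to 0.065 for AXL, -0.019 to 0.084 for EPHA2, -0.047 to 0.42 for IGF1R and -0.044 to 0.21 for INSR. The negative values of EPHA2 came without the second shCTL or the third shRor1 library, those of IGF1R without the same libraries, and those of INSR without the first shCTL or the third shRor1 library. DDR1 ran from 0.061 without the third shRor1 library to 0.58 without the first, GAS6 from 0.065 without the first shCTL library to 0.38 without the third, and MET from 0.079 without the second shRor1 library to 0.29 without the first. MERTK ran from 0.11 to 0.25 without the first or the third shCTL library, and TYRO3 from -0.10 to -0.0023 without the second or the first shRor1 library. ROR1 ran from -0.58 to -0.26, and its lowest adjusted p was 0.625 (limma). Over all genes, the study fitted counts with edgeR and reported only AGR2 and a gene of an uncharacterized protein as differential. Here 0 genes were called by limma on TPM, and 0 to 1 when 1 library was left out. The single call, RPL39P3, by its name a pseudogene of RPL39, appeared once the third shRor1 library was left out. It stood at -5.37 on the log2 scale (limma, adjusted p = 9.29e-06). Without the third library of both groups 1 gene was called, again RPL39P3 (-5.35, limma, adjusted p = 0.000502). The cause of this call was not tested. Genes at an unadjusted p below 0.05 numbered 472, but 1363 of 39104 without a filter and 227 of 11145 at a minimum mean of 5 TPM, where the number of genes tested changed, and 278 (without the second shCTL library) to 1720 (without the first shRor1 library) when 1 library was left out. The share of these that were higher in shRor1 was 80.9%, and 53.9% and 60.5% after quantile and median-of-ratios scaling, which moved the median of all genes from 0.05 to 0.0015 and 0.0045. The cause of these changes was not tested. The order of the members by mean was the same after median-of-ratios scaling, which cannot change the order within a library. Summing genes with overlapping exons on 1 strand could not change it either. The only such partner, MIR4640 of DDR1, was at 0 TPM in every library. Antisense partners were not summed. No paired analysis was possible because replicate numbers are missing from the column headers. TPM do not carry read depth, and the library sizes listed by the study could not be tied to columns, so no counting error is given.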

Other observations

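Among the receptor tyrosine kinases outside the gene set, no gene passed the adjusted test. Of the 58 genes of the family 29 were tested, members included, and 21 had a higher and 8 a lower mean in shRor1, with a median log2 fold change of 0.04. After quantile normalization 15 were higher and 14 lower, and after median-of-ratios scaling 14 and 15. EGFR, the third most abundant receptor, was at 85.21, 78.01 and 89.38 TPM in shCTL and 86.57, 80.11 and 88.54 TPM in shRor1, which overlapped. MST1R, the receptor for macrophage-stimulating protein, was at 12.04, 11.42 and 21.30 TPM in shCTL and 11.82, 12.75 and 25.23 TPM in shRor1, so that the third library of each group stood above the other four, as for IGF1R. The collagen receptor DDR2, named after its values were seen, stayed between 0.48 and 0.67 TPM, below DDR1 in every library.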
